A study of Mus musculus with 3 samples.

Results

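The genes described here encode the subunits of voltage-gated calcium and sodium channels, the proteins through which a change in membrane voltage lets calcium or sodium into a cell. Members were all genes whose symbols consist of Cacna1 and a letter, Cacna2d, Cacnb or Cacng and a digit, or Scn, a number and a or b. They number 40 of the 24244 genes that received a symbol. The set holds 10 calcium channel alpha1 (pore) subunits, 4 alpha2delta subunits, 4 beta subunits, 8 members of the gamma family, 10 sodium channel alpha (pore) subunits and 4 sodium channel beta subunits.

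Polyadenylated RNA was sequenced from cells sorted by fluorescence from the upper small intestine (villous fraction) of C57BL/6 mice, in 3 libraries. GIP-GFP holds GFP-sorted cells labelled as expressing GIP, the incretin hormone of the upper gut. Ngn3-TOMATO holds cells in which Cre recombinase driven by Neurogenin 3, the factor that starts enteroendocrine differentiation, had removed the LoxP-flanked stop from a tomato reporter at the ROSA26 locus, and their descendants. Ngn3-neg holds the epithelial cells of that cross without tomato. The tomato sorts used male mice and cells negative for the blood cell marker CD45, per the design text, which gives no sex and no such gate for GIP-GFP. The ages of the mice and the number in each pool are not given in the sources used here, and no other treatment is named. Each library is 1 pool of RNA from individual samples, so there is no replicate check on any difference below and libraries could not be tested against each other.

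Values are scaled FPKM: the deposited FPKM, a read level per length of transcript, summed over the transcript models of a gene and divided by the same constant in all libraries. Ranges in parentheses after a level are 95% limits derived from the deposited ones and cover counting and read assignment within a library. Differences are log2 of the ratio of 2 values after 1 was added to each, followed in parentheses by the same kind of interval. They were formed for genes at 1 scaled FPKM or more in either library, and adding 1 understates the difference of low genes. In a bulk library fewer cells of a type and less RNA per cell cannot be told apart.

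Depth over the listed transcripts was 592.1 to 1380 Mb of read bases, of which the members held 0.858 Mb (GIP-GFP), 2.01 Mb (Ngn3-TOMATO) and 0.0844 Mb (Ngn3-neg). All 5 epithelial markers (Epcam, Cdh1, Vil1, Krt8 and Krt20) were present in each library. The summed level of 5 enteroendocrine markers (Chga, Chgb, Neurod1, Pcsk1 and Gip) was 249237 scaled FPKM (GIP-GFP), 49941 (Ngn3-TOMATO) and 1069 (Ngn3-neg). Gip alone made up 240461 of the GIP-GFP sum, and the other 4 were each lower there than in Ngn3-TOMATO, as for Chga at 321.1 against 8802 and Neurod1 at 391.7 against 604.4. Ngn3-TOMATO was not only enteroendocrine by its markers: the sums of 4 goblet, 3 Paneth and 3 tuft cell markers were 160118, 22876 and 124.9 there, against 28334, 4024 and 61.1 in Ngn3-neg and 4549, 1932 and 16.5 in GIP-GFP.

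Background on these channels helps in reading the values. Depolarization opens voltage-gated calcium channels, and in endocrine cells the calcium that enters triggers the fusion of hormone granules with the plasma membrane. Pores of the high-voltage group (L, P/Q, N and R type) assemble with a beta subunit, which binds inside the cell and aids surface delivery, and with an alpha2delta subunit, which sits outside the membrane, whereas T-type pores open at lower voltage and can work alone. Voltage-gated sodium channels, one alpha pore with beta subunits, carry the rapid upstroke of action potentials, and enteroendocrine cells are known to be electrically excitable.

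Few members were abundant, and most of the abundant ones were shared by both reporter libraries. Of the 40 genes, 5 reached 20 scaled FPKM in GIP-GFP cells, 5 in Ngn3-TOMATO cells and 0 in Ngn3-neg cells. At 5 scaled FPKM or more there were 11, 11 and 2 in the same order, and at 1 or more 19, 14 and 6. The members summed to 496.9 (GIP-GFP), 448.9 (Ngn3-TOMATO) and 34.2 (Ngn3-neg) scaled FPKM. Cacna1a, Cacna2d1, Cacnb3 and Cacna1h exceeded 20 in both reporter libraries, joined by Cacnb2 in GIP-GFP and by Scn3a in Ngn3-TOMATO. Thus a P/Q-type pore, a T-type pore and 1 alpha2delta and 1 beta subunit made up most of the calcium channel message in each reporter library.

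**Figure D1:**
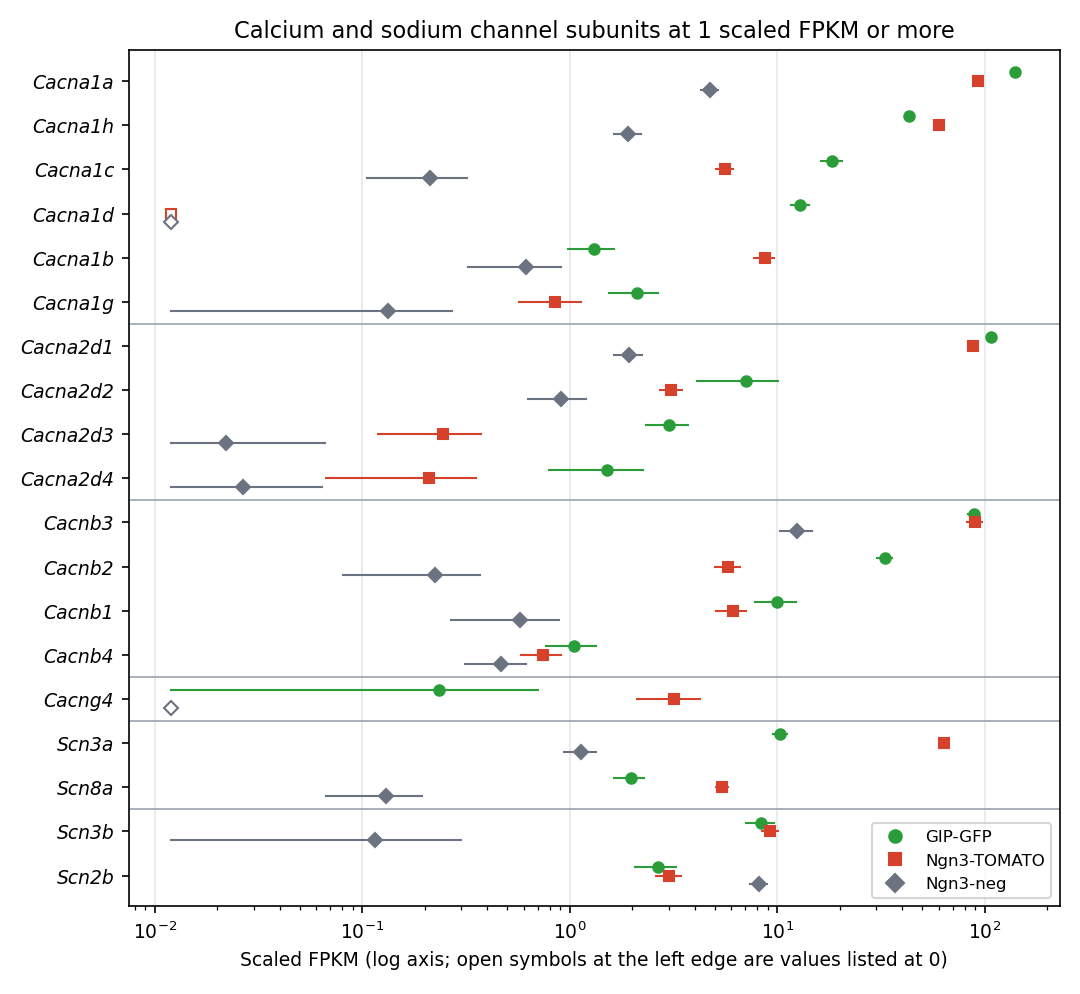
Scaled FPKM (log axis) of members at 1 or more in at least 1 library, ordered by subunit class, with 1 symbol per library, bars for the 95% limits where these could be used, bars that reach the left edge where the lower limit is 0 or beyond it, and open symbols for values listed at 0. Scn2b is the gene whose Ngn3-neg value, 8.16, lies above both reporter libraries.

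Of the 40 members, 19 reached the level needed for comparing GIP-GFP with Ngn3-neg. 16 were at least 2-fold higher in GIP-GFP, where 21.1% of all 13478 genes compared were, and 1 was at least 2-fold lower, where 13.7% were. The median log2 ratio was 2.40 over these 19 and 0.07 over all genes compared. For Ngn3-TOMATO against Ngn3-neg, 14 members could be compared, 13 were at least 2-fold higher beside 19.2% of 13456 genes, and 1 was lower beside 9.94%. The medians were 2.55 and 0.04. With every library brought to the same total, the shares of all genes became 18.7% higher and 17.8% lower for GIP-GFP, and 16.7% and 14.6% for Ngn3-TOMATO. A gene low in Ngn3-neg enters these counts only through a high reporter value, so they describe the genes and lend no support to a difference of the class. Without the level requirement 32 members had a value above 0 in either library of each pair, and the counts of higher members were again 16 and 13.

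Between GIP-GFP and Ngn3-TOMATO the members went both ways. Of 20 compared, 6 were at least 2-fold higher in GIP-GFP beside 8.05% of 13755 genes, 4 were at least 2-fold lower beside 8.75%, and 10 were within 2-fold. The higher included Cacna1c, Cacna1d, Cacnb2, Cacna2d3 and Cacna2d4, and the lower were Scn3a, Scn8a, Cacna1b and Cacng4. The median was 0.43 over these members and 0.08 over all genes compared. Both comparisons with Ngn3-neg use the same Ngn3-neg library, so their likeness is not a result.

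**Figure D2:**
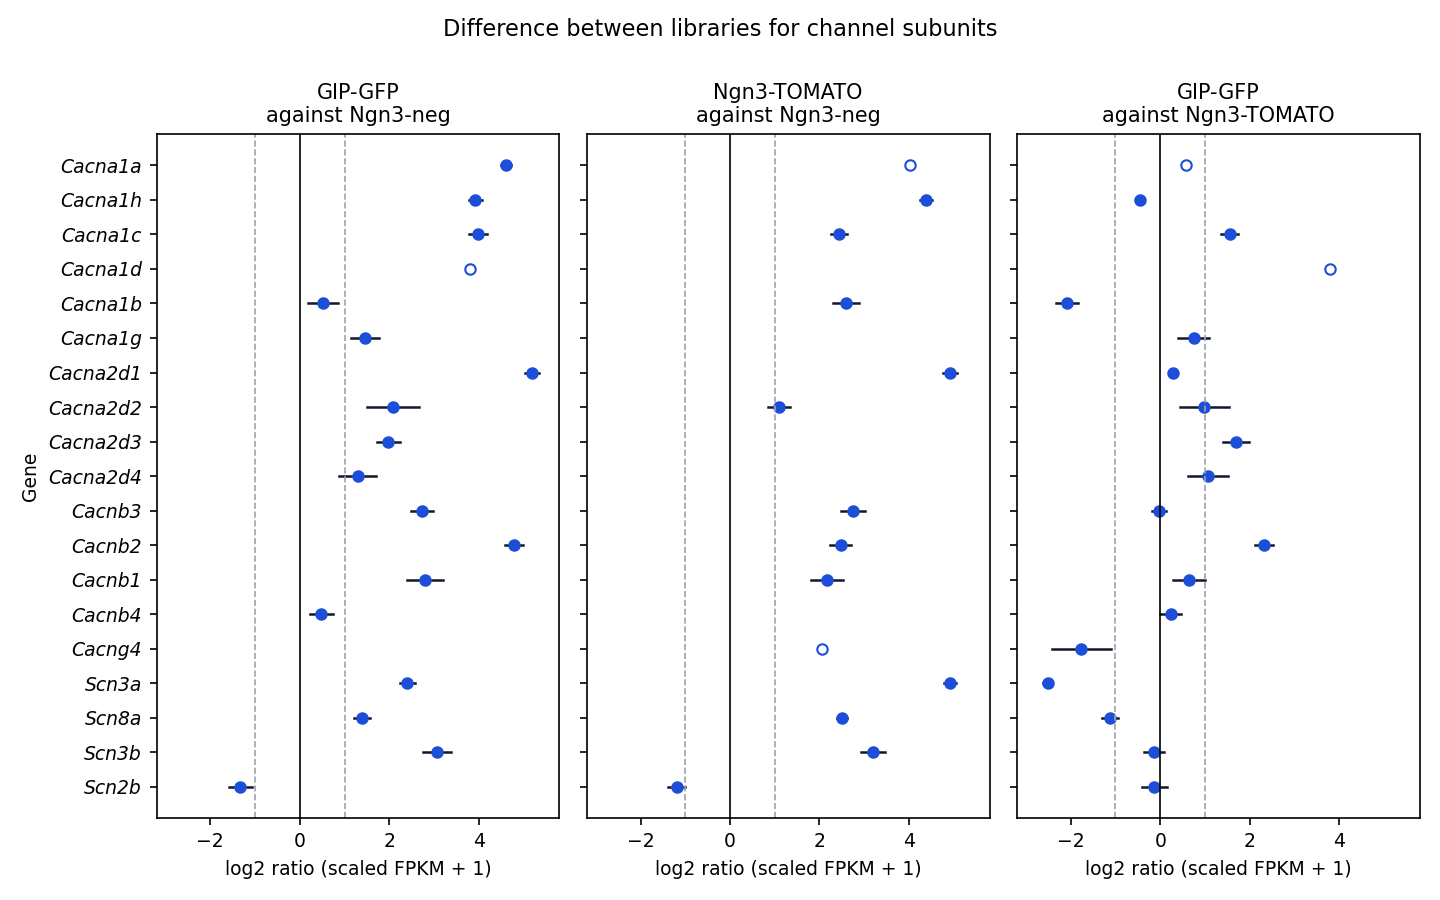
Log2 ratio of (scaled FPKM + 1) for members compared, in 3 panels for the 3 pairs of libraries, with bars for the 95% counting interval, open circles where no interval could be formed, and dashed lines at 2-fold. In the right panel Cacnb3 lies at -0.02 and Cacna2d1 at 0.28, while Cacnb2 lies at 2.32 and Scn3a at -2.52; the signs of Cacnb3 and Cacna2d1 turn with the most abundant model alone.

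Among the pore-forming calcium subunits, Cacna1a, which encodes the P/Q-type pore known for driving transmitter release at nerve endings, was the most abundant in each library. It stood at 139.4 scaled FPKM (135.1 to 143.7) in GIP-GFP cells, 92.9 in Ngn3-TOMATO cells and 4.75 (4.30 to 5.21) in Ngn3-neg cells. The order GIP-GFP, Ngn3-TOMATO, Ngn3-neg holds for these listed values, with the reporter libraries within 2-fold of each other. The log2 ratio to Ngn3-neg was 4.61 (4.49 to 4.73) for GIP-GFP and 4.03 for Ngn3-TOMATO. In Ngn3-TOMATO all its models carry the status FAIL, an error in the quantification, and have no usable limits, although 482.9 kb of read bases lay on them. The models listed above 0 were uc029wuc.1 and uc029wud.1, both spanning chr8:84415364-84640249 of mm10, at 90.6 and 48.8 in GIP-GFP cells, 63.4 and 29.5 in Ngn3-TOMATO cells and 4.75 and a listed 0 in Ngn3-neg cells. Their spliced lengths differ by few bases (7778 and 7788), so the split between them is uncertain.

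Cacna1h, which encodes a T-type pore active near resting voltage, was second in each library. Its levels were 43.3 (41.4 to 45.2) in GIP-GFP cells, 59.9 (58.5 to 61.3) in Ngn3-TOMATO cells and 1.92 (1.64 to 2.20) in Ngn3-neg cells. Ngn3-TOMATO was thus highest, with limits clear of GIP-GFP but a difference under 2-fold, at a log2 ratio of GIP-GFP to Ngn3-TOMATO of -0.46 (-0.53 to -0.39). All of it was assigned to uc008bav.2 (chromosome 17, 25374287 to 25433783, minus strand), and its locus shares 158 bases with Tpsg1, a gene on the other strand listed at 0, 172.5 and 36.4 in GIP-GFP, Ngn3-TOMATO and Ngn3-neg. The T-type partner Cacna1g was low, at 2.10 (1.54 to 2.67), 0.851 (0.570 to 1.13) and 0.133 in that order, and Cacna1i stayed under 0.1 in each library.

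Of the 4 L-type pores, which carry sustained calcium currents in endocrine cells, Cacna1c and Cacna1d had their highest values in GIP-GFP. Cacna1c stood at 18.3 (16.2 to 20.4) in GIP-GFP cells, 5.59 (5.05 to 6.14) in Ngn3-TOMATO cells and 0.213 (0.105 to 0.321) in Ngn3-neg cells. These limits do not overlap, and GIP-GFP exceeded Ngn3-TOMATO by a log2 ratio of 1.55 (1.35 to 1.75). That call rests on the sum over models, since with the most abundant model alone the ratio was 0.53. The gene overlaps Dcp1b on the other strand, at 17.9, 13.6 and 6.93 in GIP-GFP, Ngn3-TOMATO and Ngn3-neg.

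Cacna1d, the L-type pore that opens at less depolarized voltages, was listed at 12.9 (11.6 to 14.2) in GIP-GFP and at 0 in both other libraries. In GIP-GFP its 17.6 kb of read bases were all assigned to uc007sut.1, a model of 4918 bases at the 3′ end of the gene (chr14:30039939-30082758, minus strand). The models that begin at either RefSeq start site of the gene were listed at 0 in all libraries. All its models carry the status OK in each library, so the zeros are not marked as failed. No fold is given against a listed 0, although Cacna1d is among the members counted as higher in GIP-GFP. The locus shares 528 bases with Chdh and more with Dcp1a on the other strand, at 48.3 and 17.2 in GIP-GFP cells, 61.6 and 14.02 in Ngn3-TOMATO cells and 116.1 and 16.4 in Ngn3-neg cells. The L-type genes of retina and skeletal muscle, Cacna1f and Cacna1s, stayed under 0.2 in each library.

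Cacna1b, which encodes the N-type pore of nerve endings, had the opposite order within the reporter libraries. It was at 1.31 (0.979 to 1.63) in GIP-GFP cells, 8.73 (7.76 to 9.69) in Ngn3-TOMATO cells and 0.616 (0.324 to 0.908) in Ngn3-neg cells. Ngn3-TOMATO was alone in standing high, and the log2 ratio of GIP-GFP over Ngn3-TOMATO cells was -2.08 (-2.33 to -1.83). Of the Ngn3-TOMATO level 60.9% was assigned to the 3′ model uc008ipd.1 of 2626 bases, and 39.1% to the pair of models that begin at the gene's start. With the longer models alone GIP-GFP and Ngn3-TOMATO came within 2-fold, at -0.94. The R-type gene Cacna1e was at 0.0692, 0.0617 and 0.0443 in GIP-GFP, Ngn3-TOMATO and Ngn3-neg.

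As shares of all alpha1 message, the L-type group made up 14.4% in GIP-GFP cells, 3.35% in Ngn3-TOMATO cells and 4.38% in Ngn3-neg cells. The T-type group made up 20.9%, 36.2% and 26.4% in that order, and the P/Q, N and R group 64.7%, 60.5% and 69.3%. The GIP-GFP library held the largest L-type share of the 3 and the Ngn3-TOMATO library the largest T-type share. With Cacna1d left out, the L-type share in GIP-GFP was 8.96%, and those of the other libraries stayed as given. The alpha1 total of Ngn3-neg was 7.82 scaled FPKM, against 217.5 and 168.1 in GIP-GFP and Ngn3-TOMATO. Cacna1a made up 55.2% of the Ngn3-TOMATO total and has the status FAIL there. The shares of that library therefore rest on a value without usable limits.

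**Figure D3:**
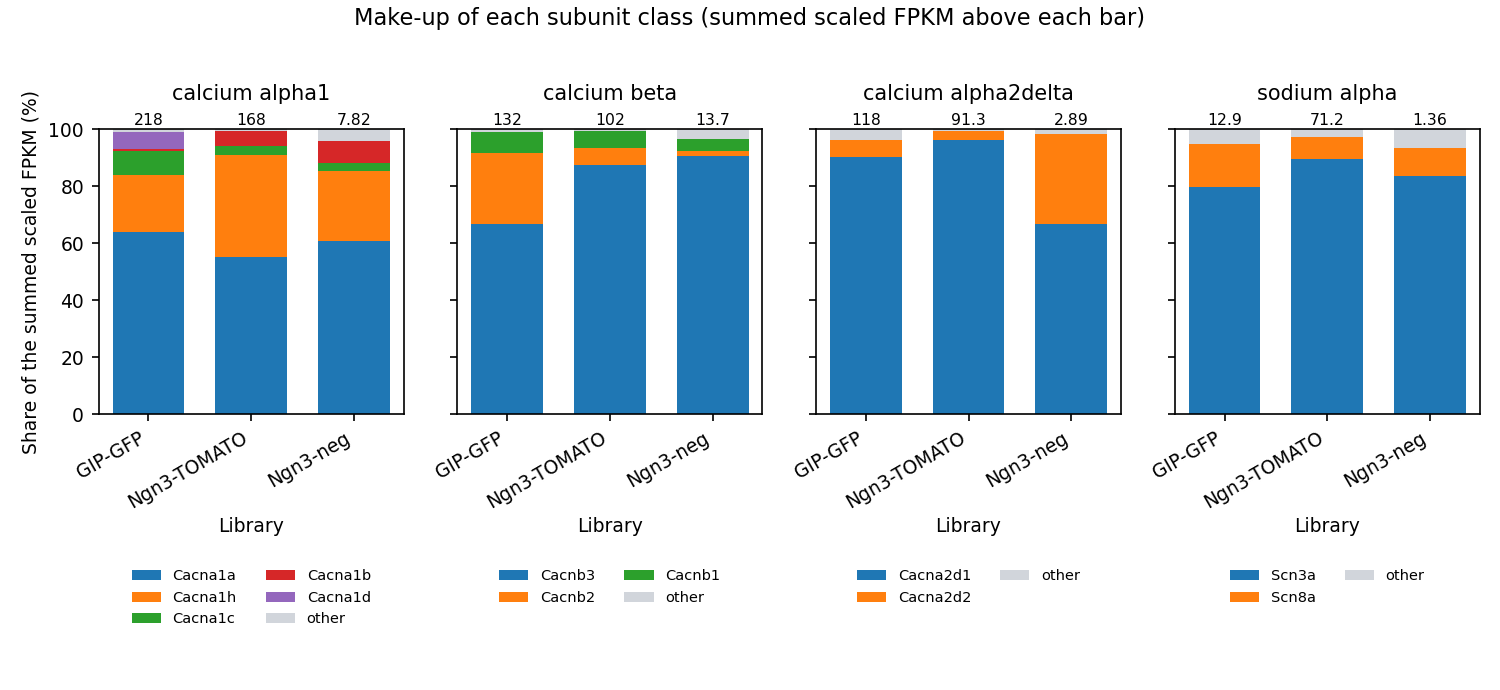
Share (%) that each gene takes of the summed scaled FPKM of its class, for calcium alpha1, calcium beta, calcium alpha2delta and sodium alpha subunits, in the 3 libraries, with the class sum above each bar and genes under 5% in all libraries joined as other. Cacnb2 takes 24.9% of the beta class in GIP-GFP and 5.66% in Ngn3-TOMATO.

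Among beta subunits, Cacnb3 was the most abundant and did not separate the reporter libraries. It stood at 88.5 (82.8 to 94.1) in GIP-GFP cells, 89.6 (81.7 to 97.5) in Ngn3-TOMATO cells and 12.4 (10.3 to 14.6) in Ngn3-neg cells. The limits of the reporter libraries overlap, with a log2 ratio of -0.02 (-0.17 to 0.14). The sign of that ratio turned with libraries brought to the same total and with the most abundant model alone. In Ngn3-neg it was the highest of all 40 members.

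Cacnb2 differed between the reporter libraries. It was at 32.9 (30.2 to 35.6) in GIP-GFP cells, 5.79 (4.99 to 6.59) in Ngn3-TOMATO cells and 0.224 (0.0809 to 0.368) in Ngn3-neg cells. The limits are separate in all pairs, and GIP-GFP exceeded Ngn3-TOMATO by a log2 ratio of 2.32 (2.12 to 2.53). Within its span lies Gm13315 on the same strand, at 8.92, 7.99 and 16.5 in GIP-GFP, Ngn3-TOMATO and Ngn3-neg. Cacnb1, known as the beta subunit of skeletal muscle, was at 10.01 (7.78 to 12.2), 6.09 (5.08 to 7.09) and 0.578 (0.269 to 0.887) in GIP-GFP, Ngn3-TOMATO and Ngn3-neg. Cacnb4 was low in each, at 1.05, 0.744 and 0.465 in that order, and overlaps the transcript A430018G15Rik on the other strand, at 9.36, 7.24 and 5.45.

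The level of Cacnb2 and Cacnb3 was also divided unequally among start sites, which give beta subunits different amino ends. For Cacnb2, models beginning at position 14824092 of chromosome 2 held 15.2 scaled FPKM in GIP-GFP and 2.94 in Ngn3-TOMATO. Those beginning at 14873656 held 17.8 and 1.45, and the model beginning at 14604306 was listed at 0 in GIP-GFP and at 1.39 (0.949 to 1.83) in Ngn3-TOMATO. The last start therefore took 24.0% of the gene in Ngn3-TOMATO and none of the listed level in GIP-GFP. For Cacnb3 (chromosome 15), the start at 98632220 held 50.8, 39.9 and 5.77 in GIP-GFP, Ngn3-TOMATO and Ngn3-neg. The start at 98639488 held 37.6, 32.8 and 3.96, and that at 98634764 was listed at 0 in GIP-GFP cells, at 16.9 (11.5 to 22.3) in Ngn3-TOMATO cells and at 2.71 (1.48 to 3.94) in Ngn3-neg cells. Within both genes, 1 start site listed in Ngn3-TOMATO had no listed level in GIP-GFP. The models of a gene share most of their exons, so this division is an estimate made by the quantification.

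**Figure D4:**
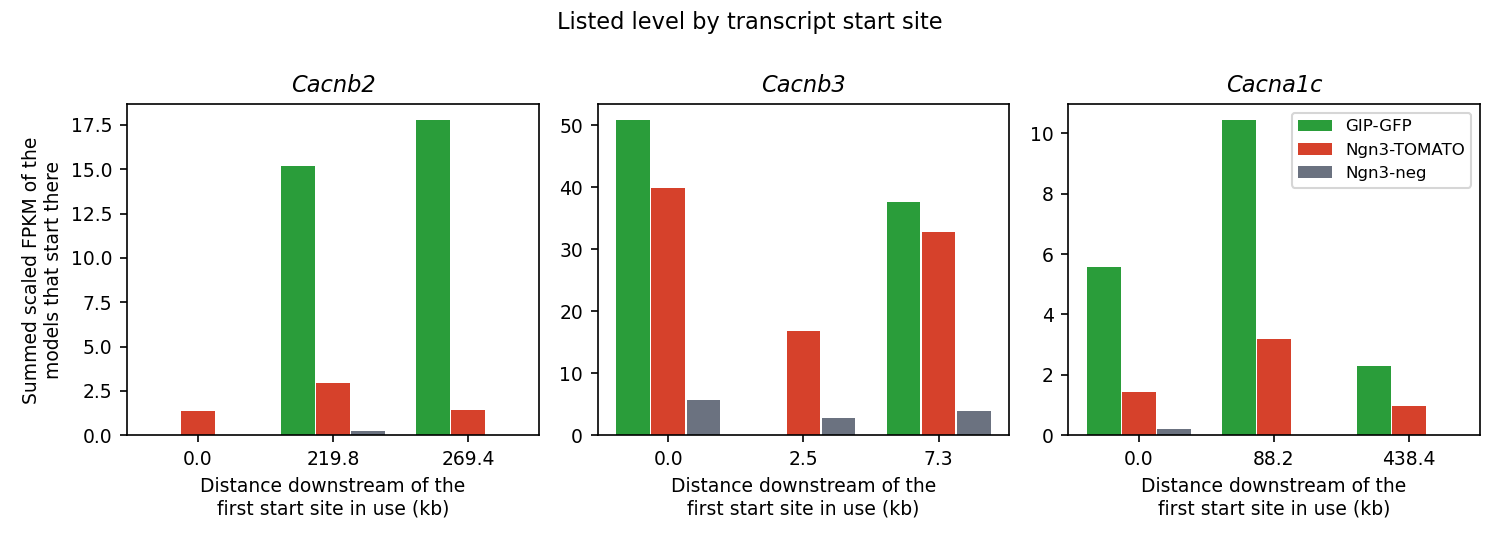
Summed scaled FPKM of the transcript models that begin at each start site with a level above 0, for Cacnb2, Cacnb3 and Cacna1c, in the 3 libraries, with sites named by their distance in kb downstream of the first such site of the gene. GIP-GFP has no bar at the first site of Cacnb2 and at the second site of Cacnb3.

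The bases before these start sites are shown for the sites with an entry in RefSeq's GRCm38.p6 promoter windows, together with Cacna2d1, whose reads came from 1 start site. Each runs 5′ to 3′ on the plus strand and stops at the RefSeq start, or earlier where a listed model begins. Exons of non-coding GENCODE transcripts of the same gene overlap the 250 bases before 14604306 and 14824092 of Cacnb2 and 98634767 of Cacnb3. The stretches were not shortened for these exons. Capitals mark CAGATG, an E-box hexamer of the kind bound by basic helix-loop-helix factors such as Neurod1, and GGGCGG, the GC box bound by Sp1, each on either strand.
Cacnb2, chr2:14604056-14604305: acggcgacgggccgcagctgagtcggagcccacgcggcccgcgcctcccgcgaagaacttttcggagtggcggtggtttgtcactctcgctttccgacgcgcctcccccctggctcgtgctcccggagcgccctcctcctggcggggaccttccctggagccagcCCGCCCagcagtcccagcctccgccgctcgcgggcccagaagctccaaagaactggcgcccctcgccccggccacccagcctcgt
Cacnb2, chr2:14823842-14824091: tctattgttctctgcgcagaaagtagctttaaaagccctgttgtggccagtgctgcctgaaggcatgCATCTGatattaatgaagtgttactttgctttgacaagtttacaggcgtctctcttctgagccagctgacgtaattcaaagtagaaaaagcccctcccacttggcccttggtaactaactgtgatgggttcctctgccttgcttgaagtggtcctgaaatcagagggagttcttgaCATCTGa
Cacnb3, chr15:98632078-98632219: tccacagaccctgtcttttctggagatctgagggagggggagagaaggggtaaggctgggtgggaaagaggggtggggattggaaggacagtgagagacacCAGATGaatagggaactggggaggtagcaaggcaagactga
Cacnb3, chr15:98634517-98634763: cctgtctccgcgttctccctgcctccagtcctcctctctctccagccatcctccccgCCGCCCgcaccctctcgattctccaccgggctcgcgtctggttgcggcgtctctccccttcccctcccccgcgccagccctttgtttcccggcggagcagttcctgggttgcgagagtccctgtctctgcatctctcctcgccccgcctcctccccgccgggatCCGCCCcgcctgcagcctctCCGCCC
Cacna2d1, chr5:15934441-15934690: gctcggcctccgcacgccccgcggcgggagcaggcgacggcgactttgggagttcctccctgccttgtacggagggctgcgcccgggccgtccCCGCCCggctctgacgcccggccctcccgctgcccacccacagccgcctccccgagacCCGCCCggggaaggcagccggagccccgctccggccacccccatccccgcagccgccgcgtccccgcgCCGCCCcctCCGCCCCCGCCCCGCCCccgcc

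These stretches were chosen after the levels were seen, and the starts at 14873656 of Cacnb2 and 98639488 of Cacnb3 were not examined. Of the stretches shown, that before 14824092 of Cacnb2 has 3 CpG pairs and 2 E-box hexamers, and the shorter one before 98632220 of Cacnb3 has 0 and 1. Those before 14604306 of Cacnb2 and 98634764 of Cacnb3 have 30 and 23 CpG pairs, no such E-box, and 1 and 3 GC boxes. The Cacna2d1 stretch, with a level in each library, has 36 CpG pairs and 6 GC boxes counting overlaps. Promoter windows were found for 30 of the 40 members, 41 windows in all. The E-box hexamer occurs in 5 of these 41 over the 250 bases before the start (12.2%) and in 14.4% of all 32851 windows, and the GC box in 15 (36.6%) and 32.7%. The TATA hexamer TATAAA is in 2 of 41 and 12.4%, and TTCAGCACC, part of the element bound by the repressor Rest, in 0 of 41 and 0.301%. These are matches of letters and not sites of binding.

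The alpha2delta class was almost entirely Cacna2d1, the subunit known as a target of gabapentin drugs. It stood at 106.7 (103.1 to 110.3) in GIP-GFP cells, 87.7 (85.2 to 90.3) in Ngn3-TOMATO cells and 1.94 (1.63 to 2.24) in Ngn3-neg cells. The reporter libraries were both far above Ngn3-neg, by log2 ratios of 5.20 (5.04 to 5.35) and 4.92 (4.76 to 5.07). The former was the highest of the members compared with Ngn3-neg when 1 was added to each value. With 0.1 added, Cacnb2 at 6.67 and Cacna1c at 5.88 exceeded the 5.71 of Cacna2d1, as did Cacna1d, which was listed at 0 in Ngn3-neg. Its share of the class was 90.2% in GIP-GFP cells, 96.1% in Ngn3-TOMATO cells and 66.9% in Ngn3-neg cells.

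Its models were divided differently in the reporter libraries. uc008wnb.2 (7400 bases) was at 51.0 (48.6 to 53.4) in GIP-GFP and 14.6 (13.1 to 16.0) in Ngn3-TOMATO. uc008wmx.2 (7415 bases) was at 31.3 and 37.6, and uc008wna.2 (7472 bases) at 24.4 and 35.6. The shortest of these was therefore listed highest in GIP-GFP and lowest in Ngn3-TOMATO. All span chr5:15934691-16374511 and their spliced lengths are close, so the split between them is an estimate and uncertain. The log2 ratio of the gene between GIP-GFP and Ngn3-TOMATO, 0.28 over all models, was -0.26 with the most abundant model alone.

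The other alpha2delta genes were low and had their highest value in GIP-GFP. Cacna2d2 was at 7.10 (4.11 to 10.1), 3.09 (2.72 to 3.46) and 0.909 (0.626 to 1.19) in GIP-GFP, Ngn3-TOMATO and Ngn3-neg, and Cacna2d3 at 3.02 (2.33 to 3.71), 0.245 (0.119 to 0.372) and 0.0220 (0 to 0.0659). Cacna2d4 was at 1.52, 0.210 and 0.0266, of which 89.6% in GIP-GFP was an internal model of 2581 bases. Cacna2d3 exceeded Ngn3-TOMATO by a log2 ratio of 1.69 (1.40 to 1.98), or 0.61 with 5 added to each value, and Cacna2d2 fell just short of 2-fold, at 0.99 (0.44 to 1.53).

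Set against the high-voltage pores they assemble with, the beta class summed to 132.5 scaled FPKM beside 172.0 of high-voltage alpha1 in GIP-GFP, and to 102.2 beside 107.3 in Ngn3-TOMATO. In Ngn3-neg the beta sum of 13.7 exceeded the alpha1 sum of 5.76, a ratio of 2.38 against 0.77 and 0.95 in the reporter libraries. Alpha2delta message was 0.69, 0.85 and 0.50 of high-voltage alpha1 message in GIP-GFP, Ngn3-TOMATO and Ngn3-neg. These are ratios of message per length and not of protein. Those of Ngn3-TOMATO include Cacna1a, whose status there is FAIL.

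The gamma family, of which several members are auxiliary subunits of AMPA receptors and not of calcium channels, was almost silent. Cacng4 was at 0.235 (0 to 0.706) in GIP-GFP cells, 3.19 (2.11 to 4.26) in Ngn3-TOMATO cells and a listed 0 in Ngn3-neg cells, on 2.10 kb of read bases in Ngn3-TOMATO. Its model overlaps Gm11650 on the other strand, at 0.194 in Ngn3-TOMATO. Cacng2 and Cacng5 were under 0.1 in Ngn3-neg and listed at 0 in both other libraries, and Cacng1, Cacng3, Cacng6, Cacng7 and Cacng8 were listed at 0 in each library.

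Among sodium channel pores, Scn3a stood far above the rest. The gene encodes a channel best known from developing neurons and from endocrine cells of gut and pancreas. It was at 10.3 (9.54 to 11.1) in GIP-GFP cells, 63.8 (62.5 to 65.0) in Ngn3-TOMATO cells and 1.14 (0.935 to 1.34) in Ngn3-neg cells. All limits are separate, with Ngn3-TOMATO above GIP-GFP by a factor of 6.18 before the pseudocount. The log2 ratio of GIP-GFP over Ngn3-TOMATO cells was -2.52 (-2.62 to -2.41), and those of GIP-GFP and Ngn3-TOMATO to Ngn3-neg were 2.40 (2.24 to 2.57) and 4.92 (4.78 to 5.06). The reads were assigned to 1 model, uc012bwa.1 (chromosome 2, 65457118 to 65567492, minus strand), and amounted to 27.3, 407.2 and 5.47 kb of read bases in GIP-GFP, Ngn3-TOMATO and Ngn3-neg.

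Scn8a, which encodes a pore common at sites of spike initiation in neurons, followed the same order at lower levels. It stood at 1.96 (1.64 to 2.29) in GIP-GFP cells, 5.44 (5.09 to 5.79) in Ngn3-TOMATO cells and 0.130 (0.0668 to 0.194) in Ngn3-neg cells. The log2 ratio of GIP-GFP over Ngn3-TOMATO cells was -1.12 (-1.30 to -0.94), and with 5 added to each value it was -0.58, short of 2-fold. The remaining sodium pores were below 1 scaled FPKM. Scn11a was at 0.642 in both reporter libraries and 0.0588 in Ngn3-neg. Scn7a, Scn9a and Scn2a were at 0.466, 0.449 and 0.341 in Ngn3-TOMATO and at 0.0219 or less in both other libraries, and Scn1a and Scn4a stayed under 0.1. Scn10a was listed at 0 throughout.

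The sodium alpha sum was 12.9 (GIP-GFP), 71.2 (Ngn3-TOMATO) and 1.36 (Ngn3-neg) scaled FPKM, of which Scn3a made up 79.7%, 89.5% and 83.7%. The genome places Scn3a, Scn2a, Scn1a, Scn9a and Scn7a side by side within 1328 kb of chromosome 2 (65457118 to 66784914). Only Scn3a of these neighbours exceeded 0.5 scaled FPKM in any of the 3 libraries.

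Scn3a and Cacna1b were higher in Ngn3-TOMATO than in GIP-GFP, as were the goblet, Paneth and tuft cell marker sums given above. Of the enteroendocrine markers, Chga, Chgb, Neurod1 and Pcsk1 were higher there too, and Gip was lower. In Ngn3-neg the goblet, Paneth and tuft sums were also above those of GIP-GFP, and Scn3a and Cacna1b were below. The part of any cell type in these differences was not tested. The summed level of 8 enteric neuron markers, a cell type rich in these channels, was 1.08, 6.57 and 1.51, from GIP-GFP to Ngn3-neg, with 0, 3 and 1 of 8 at 1 or more. The 3 in Ngn3-TOMATO were Chat at 3.08, Prph at 1.35 and Elavl4 at 1.17, against 0.412, 0 and 0.387 in GIP-GFP. Stmn2 was at 0.744 in Ngn3-TOMATO and 0.0828 in GIP-GFP, and Hand2 was at 0 in both. The sums of 7 muscle markers were 0.315, 0.536 and 0.687 and those of 4 glial markers 3.70, 3.56 and 1.59, with Sox10 at 0 in each. The 3 markers of interstitial cells summed to 61.3, 62.0 and 13.2, led by Kit, and 6 markers of lymphocytes and myeloid cells to 39.9, 12.9 and 16.7, in the same order.

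The sodium channel beta subunits, which tune gating and act in cell adhesion, did not all follow the pores. Scn3b stood at 8.35 (7.06 to 9.63) in GIP-GFP cells, 9.28 (8.42 to 10.1) in Ngn3-TOMATO cells and 0.116 (0 to 0.301) in Ngn3-neg cells. Its log2 ratios to Ngn3-neg were 3.07 (2.76 to 3.38) for GIP-GFP and 3.20 (2.94 to 3.47) for Ngn3-TOMATO, in the direction of Scn3a and Scn8a. Unlike those pores, Scn3b did not separate the reporter libraries. Its limits overlap there, with a log2 ratio of GIP-GFP over Ngn3-TOMATO of -0.14 (-0.37 to 0.09).

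Scn2b was the single member compared that was at least 2-fold lower in the reporter libraries. It stood at 2.66 (2.05 to 3.26) in GIP-GFP cells, 3.02 (2.61 to 3.43) in Ngn3-TOMATO cells and 8.16 (7.38 to 8.94) in Ngn3-neg cells. Ngn3-neg was highest with limits clear of both others, at log2 ratios of -1.32 (-1.59 to -1.06) and -1.19 (-1.38 to -0.997). With 5 added to each value instead of 1 neither reached 2-fold. The gene lies within the span of Gm10684 on the other strand, whose models were listed at 0. Scn4b was at 0.0361 in GIP-GFP and listed at 0 in both other libraries.

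Proteins that regulate these channels were read from a list of 22 genes. Of these, 17 reached the level needed for comparing GIP-GFP with Ngn3-neg, and 18 for Ngn3-TOMATO. At least 2-fold higher were 10 in GIP-GFP and 8 in Ngn3-TOMATO, and none was at least 2-fold lower, with medians of 1.31 and 0.96. Over all genes compared, 21.1% and 19.2% were higher and 13.7% and 9.94% lower, with medians of 0.07 and 0.04. Here too a gene low in Ngn3-neg enters only through a high reporter value. The counts and medians therefore describe the genes and lend no support to a difference of the list. Rimbp2, which ties calcium channels to release sites, was at 235.1, 123.7 and 3.31 in GIP-GFP, Ngn3-TOMATO and Ngn3-neg, and its partner Rims2 at 15.5, 10.9 and 1.58. Rem2 and Gem encode small GTPases that bind beta subunits and inhibit calcium channels. Rem2 was highest in GIP-GFP, at 64.1, 14.5 and 0.474, and Gem in Ngn3-TOMATO, at 16.8, 29.8 and 1.25. Cbarp, another inhibitor that acts through the beta subunit, was at 51.7 and 22.7 and listed at 0 in Ngn3-neg. Stac, which promotes L-type channel function, was at 7.65, 2.29 and 0.0710.

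Of the genes that act on sodium channels, Fgf14, an intracellular modulator of their inactivation, stood at 2.89 in GIP-GFP cells, 32.4 in Ngn3-TOMATO cells and 0.652 in Ngn3-neg cells. Its log2 ratio of GIP-GFP over Ngn3-TOMATO cells was -3.10 (-3.40 to -2.80), in the same direction as that of Scn3a. Fgf12 was at 3.09, 1.27 and 0.166 and Fgf11 at 15.2, 8.69 and 5.57 in GIP-GFP, Ngn3-TOMATO and Ngn3-neg. The anchoring protein gene Ank3 differed little between libraries, at 16.3, 18.3 and 15.9.

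**Figure D5:**
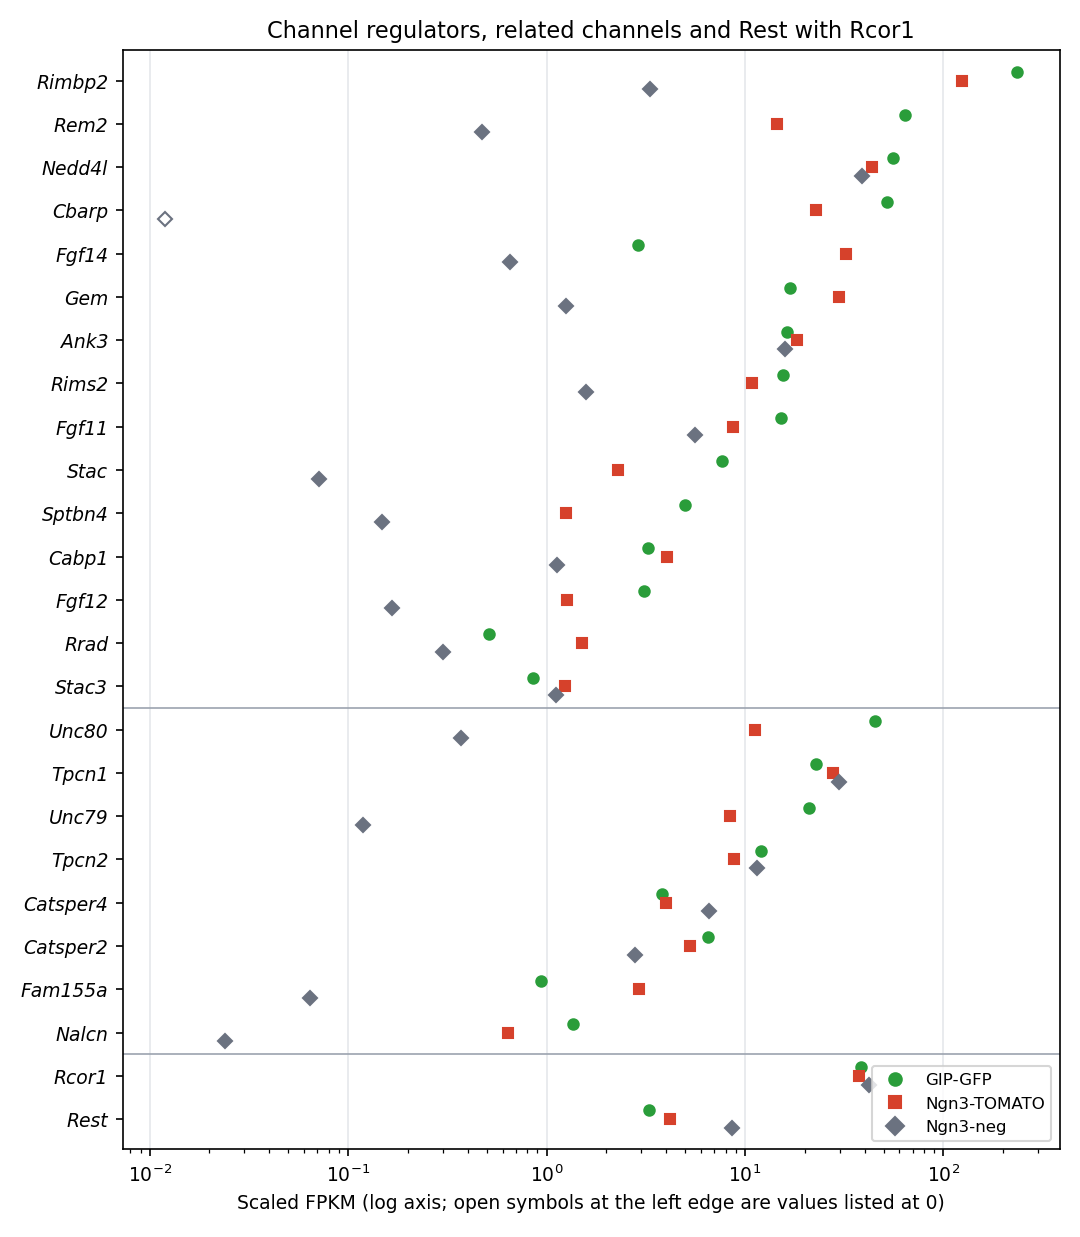
Scaled FPKM (log axis) of channel regulators, related channel genes and Rest with Rcor1 that reached 1 in at least 1 library, with 1 symbol per library and open symbols for values listed at 0. Rem2 and Unc80 lie highest in GIP-GFP, at 64.1 and 45.1, and Fgf14 in Ngn3-TOMATO, at 32.4.

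Among 11 genes of related cation channels, 10 were in the files, Fam155b being the other. In each comparison with Ngn3-neg, 7 reached the level needed. Of these, 3 were at least 2-fold higher in GIP-GFP (21.1% of all genes compared) and 3 in Ngn3-TOMATO (19.2%). None was at least 2-fold lower (13.7% and 9.94%). The higher genes were all under 1 scaled FPKM in Ngn3-neg and entered only through the reporter value, so these counts describe the genes alone. Unc80 and Unc79, which encode large partners of the sodium leak channel, were at 45.1 and 20.98 in GIP-GFP cells, 11.2 and 8.39 in Ngn3-TOMATO cells and 0.372 and 0.119 in Ngn3-neg cells. The leak channel pore gene Nalcn itself was low, at 1.35, 0.642 and 0.0239 in the same order. The endolysosomal channel gene Tpcn1 was at 22.8, 27.9 and 29.7. Rest, a repressor known for silencing neuronal channel genes in other tissues, was at 3.27, 4.21 and 8.61 in GIP-GFP, Ngn3-TOMATO and Ngn3-neg, a log2 ratio of GIP-GFP to Ngn3-neg of -1.17 (-1.68 to -0.66), and its corepressor gene Rcor1 at 38.4, 37.7 and 42.2.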

How the data were processed

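Per the submitters' processing notes, reads were checked with FastQC, and TopHat 1.5.0 and Cufflinks were used with build mm10; whether libraries kept strand is not stated there. The authors deposited FPKM with 95% limits and coverage (mean read depth) for 59120 UCSC transcript models per library. Transcripts were matched to GENCODE M21 symbols by shared ends (within 5 bases), spliced length and span overlap (at least 0.3 where no end was shared): 52071 matched, among them 125 models of the 40 members, 109 sharing an end. The 12 unmatched models inside member spans were listed at 0. Models under 200 bases, mitochondrial transcripts and values with status HIDATA (too many reads) were left out, and gene sums were divided by 8184, 1 constant for all libraries, which keeps ratios as deposited. Over all transcripts its values, as deposited in FPKM, added up to 1.02e+10 in GIP-GFP cells, 1.07e+10 in Ngn3-TOMATO cells and 1.04e+10 in Ngn3-neg cells, so its library term is unknown. Coverage times length gave read bases. Standard errors were the upper limit minus the value, over 2, summed in quadrature, and the limits of a gene are 2 of these either side. No interval was formed for a listed 0 or status FAIL. Members at 5 or more scaled FPKM are named with their values, lower ones by value or range, and models for members at 20 or more; other models and start sites were added after their values were seen. Members and lists were chosen with earlier results of these data known. Ratios and calls were tested on simulated data. Alternatives were a pseudocount of 0.1 or 5, no filter or one at 5, equal totals, median ratio, the most abundant model, matches sharing an end and no minimum length; 2 more were chosen after seeing the data, as was leaving Cacna1d out of the alpha1 shares. Python 3.11.15, pandas 2.3.3, numpy 2.4.6, scipy 1.17.1 and matplotlib 3.10.9 were used. Some members and list genes enter the counts and sums but are not reported here by name.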

Additional observations from a re-analysis of the deposited data

How the results depend on the processing

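No paired analysis was possible because each group holds 1 library. No member at least 2-fold apart changed direction under any of the 11 alternatives. With a pseudocount of 5, the members at least 2-fold higher in GIP-GFP than in Ngn3-TOMATO numbered 3 and those lower 2, and the members lower than Ngn3-neg numbered 0 in GIP-GFP and 0 in Ngn3-TOMATO. Under the same setting, the members higher than Ngn3-neg fell from 16 to 11 of 19 in GIP-GFP, beside 13.3% of all genes. For Ngn3-TOMATO they fell from 13 to 10 of 14, beside 11.1%. With a filter at 5 scaled FPKM, which compares fewer genes, the members higher in GIP-GFP than in Ngn3-TOMATO numbered 3, and with matches sharing a transcript end those lower numbered 2, without Cacna1b past 2-fold and without Cacng4. Scaling to equal totals moved the median of all genes by -0.20 for GIP-GFP and -0.23 for Ngn3-TOMATO against Ngn3-neg and took Cacna2d2 below 2-fold in the latter, at 0.96. The alternatives chosen after seeing the data were only models at least 60% as long as the longest of the gene, under which Cacna1d and Cacna2d4 lost their listed level in GIP-GFP or most of it, and status FAIL as missing, which removes Cacna1a from Ngn3-TOMATO. Genes near 1 scaled FPKM in Ngn3-neg rest on few kb of read bases, so their ratios depend most on the pseudocount.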
